A study of Drosophila melanogaster with 7 samples.

Results

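The epidermal growth factor receptor (EGFR) pathway genes described here are 10 genes of Drosophila melanogaster, chosen by symbol: the ligand gene spi, the ligand-processing gene rho, the receptor gene Egfr, the Ets-family genes pnt and aop with their partner edl, the feedback inhibitor genes aos, sty and kek1, and the target gene phyl. Of the 10, 8 had a value on at least 1 array, among 5971 genes with a value in the whole data set. The probe annotation used here listed no probe for rho or pnt, which were not analysed here. All 8 measured genes had a value from every extraction and were tested, and 7 of them had one on all 7 arrays.

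Eye imaginal discs, the larval epithelia that form the compound eye, were profiled on 2-colour arrays in a pair of sevenless (sev) genotypes. Discs of sevS11, an activated form of the Sevenless receptor tyrosine kinase, gave 3 arrays: a dye-swapped pair for extraction 1 (replicates 1 and 2) and a single array for extraction 2 (replicate 3). Discs of sevd2;+;+, a known loss-of-function allele, gave 4 arrays, a dye-swapped pair for each of 2 extractions (replicates 1 and 2, then 3 and 4). Every array was hybridised against a common pool of RNA from the isogenic wild-type strain w1118;+;+, and all discs were from larvae of w1118 background in the third instar, staged with bromophenol blue. The labels do not say what drives the sevS11 form or in which cells, nor how many animals went into an extraction. One description calls the pool's tissue wing discs, while its source name, tissue field and extraction protocol say eye discs. Values are log2 ratios to the pool, likely mutant over pool, and are relative to it: they compare a gene between samples and do not rank transcript levels between genes. A mean is given with its SE, the standard error that limma fitted over n = 2 extractions per genotype, with 1 spread shared by both genotypes. Over genes, extraction 1 minus extraction 2 had an SD of 0.393 in sevS11 and 0.174 in sevd2. The shared spread may therefore be too small for sevS11 and too large for sevd2, and the SEs, intervals and p-values with it. A gene passed at a Benjamini-Hochberg adjusted p under 0.05 over 3586 genes. Leaving out sevS11 replicate 3 or sevS11 extraction 1 leaves 1 sevS11 extraction, so the spread in those fits comes from the sevd2 extractions alone. Calls that appear there are given beside the genes named here, and further pathway genes that are not named passed there as well. Far more of all genes passed there too. Without sevS11 replicate 3, 46.9% of all genes passed for sevS11, 14.5% for sevd2 and 40.7% for their difference. Without sevS11 extraction 1 these shares were 24.7%, 12.0% and 9.25%.

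In the developing eye, Spitz, released from its membrane precursor by the protease Rhomboid, binds EGFR and activates Ras and the MAP kinase Rolled. The kinase inactivates the Ets repressor Yan, encoded by aop, and stimulates the Ets activator Pointed, and the transcribed targets include the pathway's own inhibitors. Sevenless feeds into the same Ras and MAP kinase route in the R7 precursor, where the adaptor gene phyl is required.

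One of the 8 genes passed: phyl was 2.3-fold higher in sevS11 than in the pool. None of the 8 passed in sevd2, where only 0.0837% of all genes did. The sprouty gene sty was 1.49-fold above the pool in sevS11 and lay just outside the threshold. The genes aop, aos and spi were also above the pool on every sevS11 array without passing. Of all genes on 7 arrays, 23.3% were above it on every sevS11 array. The ratios of Egfr, edl and kek1 differed in sign between the sevS11 extractions. The 1 call among 8 stands beside 5.77% of all 3586 genes that passed in sevS11, of which 2.18% of genes were higher and 3.6% lower.

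**Figure D1:**
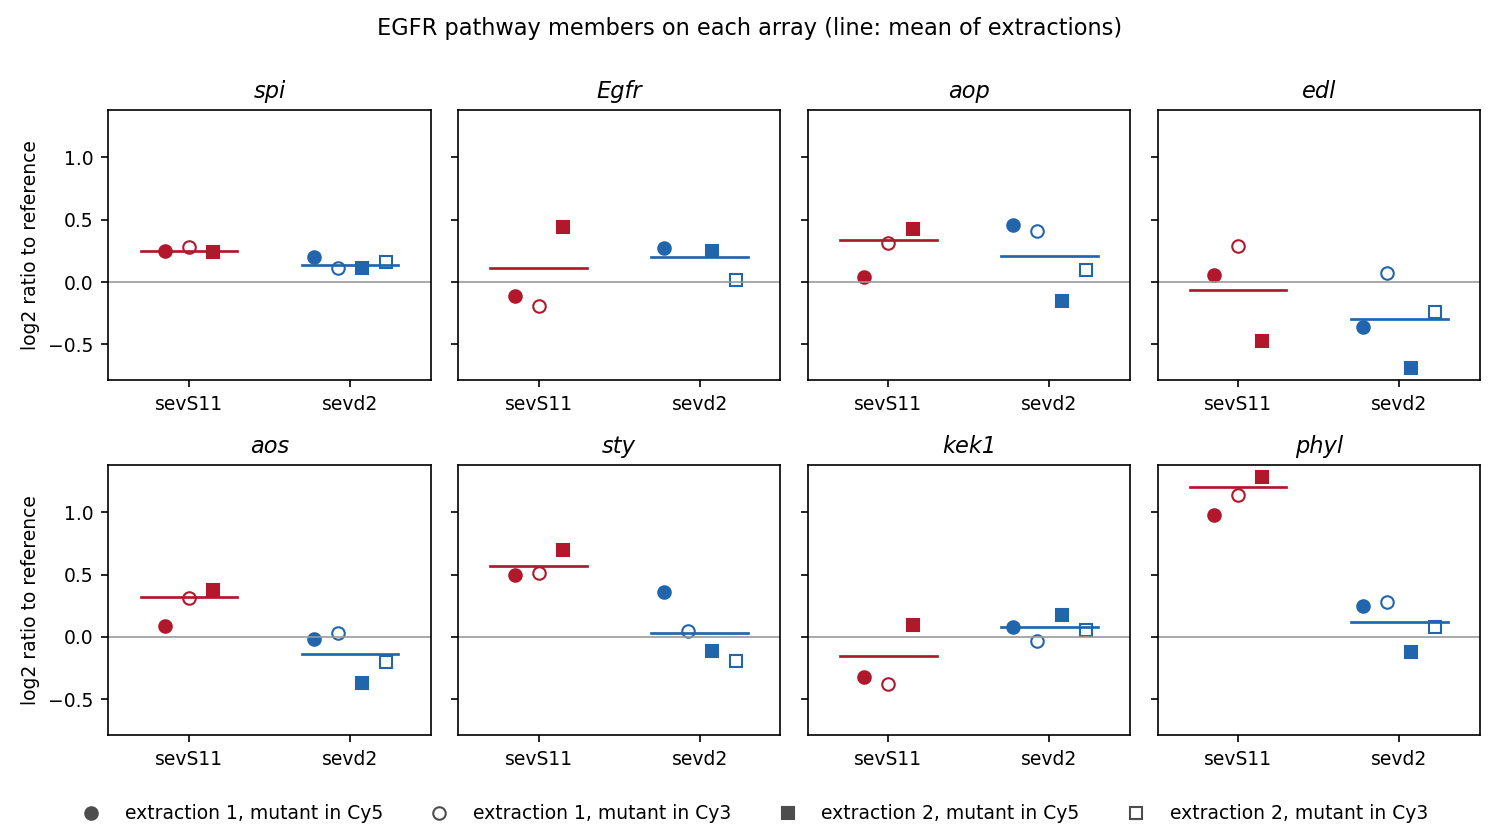
Log2 ratio to the reference pool (vertical axis) of the 8 measured genes on each array, sevS11 in red and sevd2 in blue. Circles are extraction 1 and squares extraction 2, filled with the mutant in Cy5 and open with it in Cy3, and lines are means of the extractions after the dye correction of the single sevS11 array. The 3 sevS11 points of phyl lie between 0.98 and 1.28, above its 4 sevd2 points, whereas the points of Egfr, edl and kek1 overlap.

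The ligand gene spi encodes the principal EGFR ligand of the eye disc, a membrane-bound relative of transforming growth factor alpha. Its log2 ratio was 0.25, 0.28 and 0.24 on sevS11 replicates 1 to 3. On sevd2 replicates 1 to 4 it was 0.20, 0.11, 0.11 and 0.16. All 7 values were above 0, and the lowest sevS11 value lay above the highest sevd2 value. The mean was 0.25 ± 0.09 in sevS11 (95% interval 0.03 to 0.48; limma, adjusted p = 0.162), and 0.14 ± 0.09 in sevd2 (-0.08 to 0.37; limma, adjusted p = 0.701). Neither passed with all 4 extractions. The sevS11 value passed in 2 of 21 alternative settings (limma, lowest adjusted p = 0.0175), 1 of them without sevS11 replicate 3, where it was 0.263. The spi values combine 2 probes, 1 with a value on all arrays and 1 on 2 of the sevS11 arrays only, where it read 0.02 and 0.15. The complete probe by itself gave 0.47, 0.28 and 0.34 on the sevS11 arrays, and its fitted sevS11 mean of 0.337 also missed the threshold (limma, adjusted p = 0.106).

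The receptor gene Egfr had ratios of -0.11 and -0.19 on the arrays of sevS11 extraction 1 and of 0.44 on the single array of sevS11 extraction 2. Its sevd2 ratios were 0.27 on replicate 1, 0.25 on replicate 3 and 0.02 on replicate 4, with no value on replicate 2. The first sevd2 extraction therefore rested on 1 array for this gene, without a dye swap. The genotypes overlapped, and sevS11 spanned both sides of 0. Means were 0.11 ± 0.14 in sevS11 (limma, adjusted p = 0.665) and 0.20 ± 0.14 in sevd2 (limma, adjusted p = 0.741). Without sevS11 replicate 3 the sevS11 value was -0.153, and without sevS11 extraction 1 it was 0.330 and passed (limma, adjusted p = 0.0459).

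Of the Ets group, aop encodes Yan, the repressor that holds cells undifferentiated until MAP kinase phosphorylates it. Its ratios were 0.04, 0.31 and 0.43 on the sevS11 arrays and 0.46, 0.41, -0.15 and 0.10 on the sevd2 arrays. The sevd2 extractions stood apart, at 0.43 and -0.02, and the genotypes overlapped. The aop means were 0.34 ± 0.15 in sevS11 (limma, adjusted p = 0.226) and 0.21 ± 0.15 in sevd2 (limma, adjusted p = 0.751). Without sevS11 replicate 3 the sevS11 value was 0.174, and without sevd2 extraction 1 the sevd2 value was -0.024.

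The gene edl, also called mae, encodes a protein that binds Yan and Pointed through its SAM domain. Its ratios were 0.06, 0.29 and -0.47 on the sevS11 arrays and -0.36, 0.07, -0.69 and -0.24 on the sevd2 arrays. In each of the 3 dye-swapped pairs the array with the mutant in Cy5 read lower, and the dye effect, taken as the mean over the pairs of (Cy5 array minus Cy3 array)/2, was -0.19, the largest dye effect among the 8 genes. The single sevS11 replicate 3, also in Cy5, was corrected to -0.29 and still stood below sevS11 extraction 1 at 0.17. The edl means of -0.06 ± 0.15 in sevS11 (limma, adjusted p = 0.83) and -0.30 ± 0.15 in sevd2 (limma, adjusted p = 0.601) did not pass, and the sevS11 value was 0.172 without replicate 3.

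The feedback inhibitors act at different steps. Argos, the product of aos, is a secreted protein that binds Spitz and keeps it from the receptor. The aos ratios were 0.09, 0.31 and 0.38 on the sevS11 arrays and -0.02, 0.03, -0.37 and -0.20 on the sevd2 arrays. Every sevS11 value exceeded every sevd2 value, and 3 of 4 sevd2 values were below 0. The sevS11 mean was 0.32 ± 0.12 (95% interval 0.02 to 0.62; limma, adjusted p = 0.17), and the sevd2 mean was -0.14 ± 0.12 (-0.44 to 0.16; limma, adjusted p = 0.812). Neither passed, although the sevS11 value of 0.434 did without sevS11 extraction 1 (limma, adjusted p = 0.0429). Without sevS11 replicate 3 it was 0.197 (limma, adjusted p = 0.194).

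Sprouty, the product of sty, restrains signalling from receptor tyrosine kinases inside the cell. The sty ratios were 0.50, 0.51 and 0.70 on the sevS11 arrays, close to one another and all above the sevd2 ratios of 0.36, 0.05, -0.11 and -0.19. The sevd2 extractions disagreed in sign, at 0.21 and -0.15. The sevS11 mean was 0.57 ± 0.12 (95% interval 0.27 to 0.87), ranked 228th of 3586 genes by p, and missed the threshold (limma, adjusted p = 0.0568). At an adjusted p under 0.1, which 11.4% of all genes met, sty was counted with phyl. At the threshold of 0.05 it passed in 6 of 21 alternative settings, and over all of them its value ran from 0.42 to 0.61 and its adjusted p from 0.00906 to 0.126. The lowest adjusted p came from fitting each array as a sample. Leaving out sevd2 replicate 1 or 4 or sevS11 replicate 2 or 3 gave adjusted p values of 0.0351, 0.0425, 0.0444 and 0.0176 (limma), and leaving out sevS11 extraction 1 gave 0.0236 (limma). In sevd2 the mean was 0.03 ± 0.12 (-0.27 to 0.33; limma, adjusted p = 0.972).

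Kekkon-1, the product of kek1, is a transmembrane protein with leucine-rich repeats that binds EGFR and inhibits it. Its ratios were -0.32 and -0.38 in sevS11 extraction 1, 0.10 on the single array of sevS11 extraction 2, and 0.08, -0.03, 0.18 and 0.06 on the sevd2 arrays. Only the pair of extraction 1 lay apart from the other 5 arrays. The means of -0.15 ± 0.13 in sevS11 (limma, adjusted p = 0.491) and 0.08 ± 0.13 in sevd2 (limma, adjusted p = 0.922) did not pass, and the sevS11 value was 0.048 without sevS11 extraction 1. It was -0.349 and passed without sevS11 replicate 3 (limma, adjusted p = 0.0174). The sevS11 extractions of kek1 were at -0.35 and 0.06, so its sign was not settled, whereas aos and sty were above 0 in both.

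The target gene phyl encodes Phyllopod, an adaptor that brings the ubiquitin ligase Sina to the repressor Tramtrack, and the gene is required for the R1, R6 and R7 photoreceptor fates. Its log2 ratio was 0.98, 1.14 and 1.28 on the sevS11 arrays and 0.25, 0.28, -0.12 and 0.08 on the sevd2 arrays. The groups were separated by a wide gap, and both dye orientations and both extractions of sevS11 were high. The sevS11 mean was 1.20 ± 0.12 (95% interval 0.89 to 1.51), 2.3-fold over the pool (limma, adjusted p = 0.0122), which ranked 12th of 3586 genes by ratio and 25th by p. It passed in all 21 alternative settings, with values from 0.92 to 1.33. In sevd2 the mean was 0.12 ± 0.12 (-0.18 to 0.43), with extractions at 0.27 and -0.02, and did not pass (limma, adjusted p = 0.835). Bulk disc RNA cannot tell a change in the number of cells that transcribe a gene from a change in RNA per cell.

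**Figure D2:**
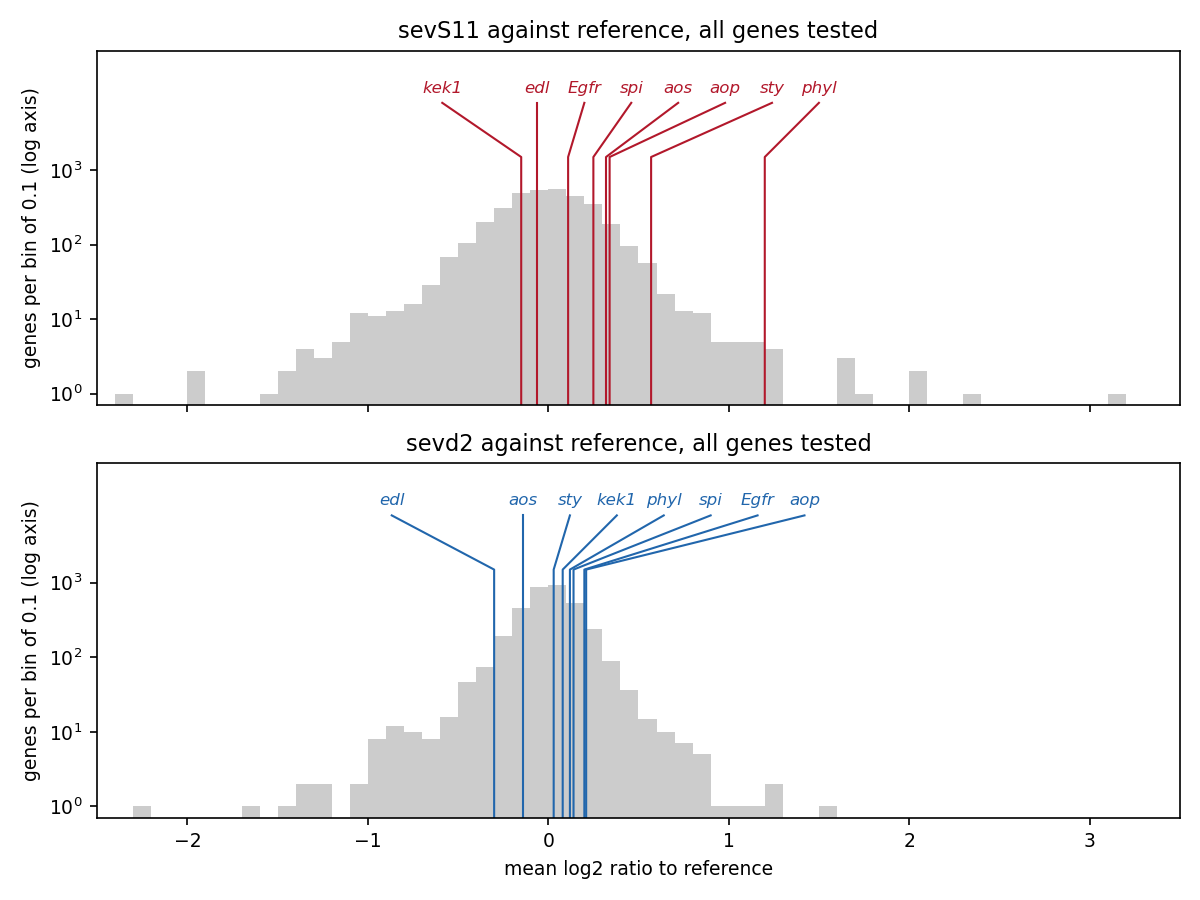
Histograms of the mean log2 ratio to the reference pool (horizontal axis, bins of 0.1) over the 3586 genes tested, with the number of genes per bin on a log axis, for sevS11 above and sevd2 below. Coloured lines mark the 8 EGFR pathway genes: phyl at 1.20 and sty at 0.57 lie in the upper tail of sevS11, and in sevd2 the 8 lie between -0.30 and 0.21.

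In sevS11 6 of the 8 genes had a mean above 0, beside 49.3% of all genes tested, and the median ratio of the 8 was 0.29 beside 0.00 over all genes. At an unadjusted p under 0.05, 4 of the 8 (phyl, sty, spi and aos) were counted in sevS11, all above the pool, beside 25.3% of all genes in either direction and 11.2% above the pool. In sevd2 the median of the 8 was 0.10 beside 0.01 over all genes, 6 of the 8 were above 0 beside 52.6% of all genes, and 0 of the 8 passed beside 0.0837% of all genes. That share was 7.66% with each array fitted as a sample, 13.8% with sevd2's own extractions, and 14.5% and 12.0% without sevS11 replicate 3 and sevS11 extraction 1, and 0 of the 8 passed in these fits too (limma). None of the 8 reached an unadjusted p under 0.05 in sevd2 (limma), as 9.76% of all genes did. Both comparisons share the same reference pool. The 95% intervals in sevd2 bound each change and do not show that the transcripts were at wild-type level.

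The pool cancels in the direct difference, sevS11 minus sevd2. None of the 8 differences passed, as against 0.0558% of all genes, a share that was 40.7% without sevS11 replicate 3, 9.25% without sevS11 extraction 1, 12.2% with each array fitted as a sample and 2.37% with the extraction number as a block. In the fit with all 4 extractions, 3 of the 8 (phyl, sty and aos) reached an unadjusted p under 0.05 (limma), all higher in sevS11, beside 12.7% of all genes in either direction and 5.61% higher. The fitted difference was above 0 for 6 of the 8, beside 47.8% of all genes. The phyl difference was 1.08 ± 0.18 (95% interval 0.64 to 1.51), 2.11-fold, and ranked 30th of 3586 by p (limma, adjusted p = 0.115). Its call depended on the setting: it passed at 0.936 when sevS11 replicate 3 was left out (adjusted p = 0.00492 by limma), and at 1.209 when sevS11 extraction 1 was left out (adjusted p = 0.0102 by limma). For sty the difference was 0.55 ± 0.17 (0.12 to 0.97; limma, adjusted p = 0.291), which passed at 0.477 when sevS11 replicate 3 was left out (adjusted p = 0.0467 by limma). For aos it was 0.46 ± 0.17 (0.04 to 0.89; limma, adjusted p = 0.35). The remaining 5 differences ran from -0.22 for kek1 to 0.25 for edl, with intervals that all included 0. Without sevS11 replicate 3, 3 of these 5 passed: Egfr at -0.356, edl at 0.477 and kek1 at -0.424 (limma, adjusted p = 0.0418, 0.0391 and 0.0212), beside 40.7% of all genes. Without sevS11 extraction 1 the differences of Egfr, edl and kek1 were 0.127, 0.053 and -0.027, and none of the 3 passed (limma).

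On single arrays, phyl, sty, aos and spi, 4 of the 7 genes on all arrays, had every sevS11 value above every sevd2 value. Of all 2261 genes on 7 arrays 13.3% were separated in that direction. None of the 7 was separated the other way, as 16.9% of those genes were. Ratios were above 0 on every sevS11 array for 5 of the 7 (spi, aop, aos, sty and phyl) and on every sevd2 array for 1 (spi), beside 23.3% and 23.4% of the genes on 7 arrays. The spi separation was narrow, and its fitted difference was 0.11 ± 0.13 (-0.21 to 0.43; limma, adjusted p = 0.726).

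**Figure D3:**
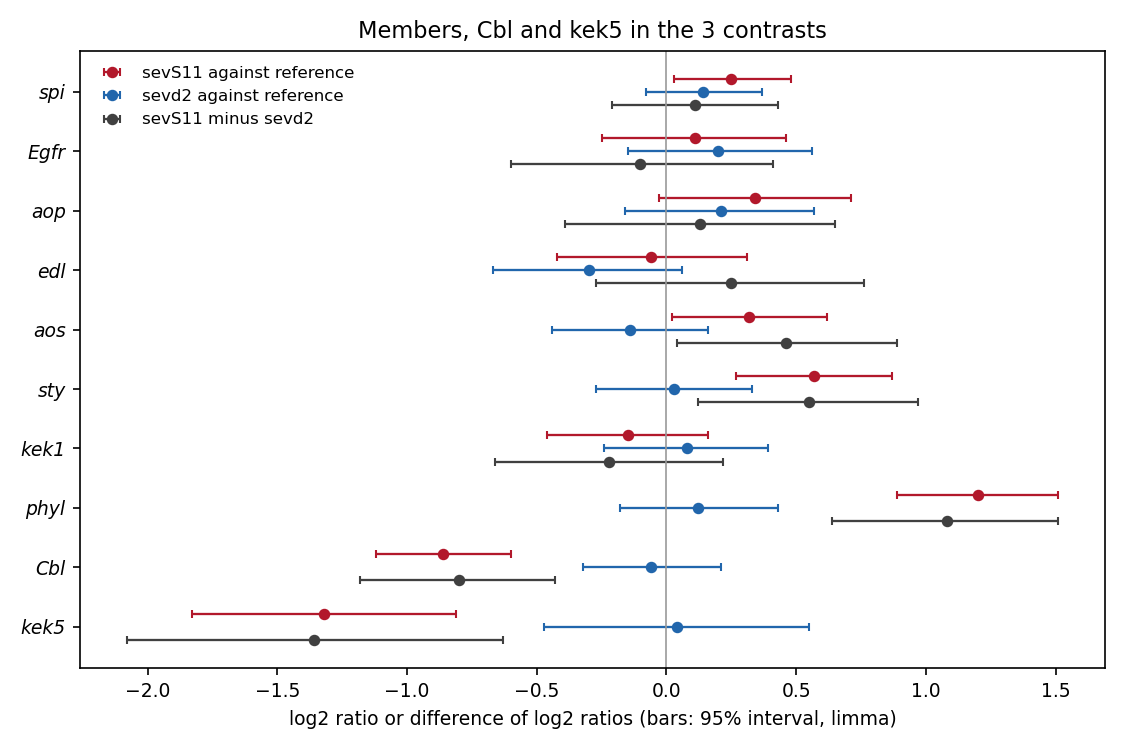
Means of log2 ratio, sevS11 and sevd2 against the pool, and the difference sevS11 minus sevd2 (horizontal axis), with 95% limma intervals as bars, for the 8 genes and for Cbl and kek5. The sevS11 interval of phyl runs from 0.89 to 1.51 and that of sty from 0.27 to 0.87, while every sevd2 interval shown includes 0.

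The extractions of a genotype differed by amounts close to many of these ratios. The median absolute difference between extractions was 0.30 for the 8 genes in sevS11, near the 0.26 of all genes tested, and 0.29 in sevd2, above the 0.09 of all genes tested. Signs were opposite between the sevS11 extractions for Egfr, edl and kek1, 3 of 8 genes, beside 39.5% of all genes tested. Between the sevd2 extractions they were opposite for aop, aos, sty and phyl, 4 of 8, beside 26.4%. In each of those 4 genes sevd2 extraction 2 was the lower, as it was in spi, Egfr and edl, while in kek1 it was higher by 0.09. The sevd2 extraction nearer 0 read -0.02 for aop, 0.00 for aos and -0.02 for phyl, so these signs rest on values close to 0. The dye effects other than that of edl were between -0.08 for aop and 0.08 for Egfr.

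Genes elsewhere in the pathway came from a list of 52, of which 29 had a value and 19 were tested. The list also held paralogs of kek1, kek5 among them, and further Ets genes. These were included by family, and their part in EGFR signalling was not tested. In sevS11 0 of the 19 were higher and 2 were lower, Cbl and kek5, beside 5.77% of all genes, with a median ratio of 0.01. In sevd2 0 of 19 passed, beside 0.0837% of all genes, with a median of 0.08. At an unadjusted p under 0.05 (limma) 3 of 19 were counted, beside 9.76% of all genes. In the difference 0 of 19 passed, beside 0.0558% of all genes, with a median of -0.02. Likewise 3 of 19 reached an unadjusted p under 0.05 (limma), beside 12.7% of all genes. So few genes passed in these comparisons that a count of 0 does not set the list apart. The 10 measured genes that lacked a value from some extraction were not tested in this fit. With genes kept that had a value from at least 1 extraction of each genotype, 25 were tested. Of these 3 passed in sevS11, beside 4.41% of all genes: Cbl and kek5 lower, and mirr higher. The sevS11 value of mirr, an Iroquois-family homeobox gene of the dorsal eye, was 1.40 and came from extraction 1 alone. Its call therefore had no spread between extractions of its own. The 1 sevd2 value of mirr was 1.70, so its ratio was not higher in sevS11 than in sevd2.

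The gene Cbl encodes a ubiquitin ligase that promotes the removal of activated EGFR. Its ratios were -0.93, -1.05 and -0.73 on the sevS11 arrays, far below the sevd2 ratios of -0.09, -0.03, -0.10 and 0.00. The sevS11 mean was -0.86 ± 0.11, 0.551 times the pool (limma, adjusted p = 0.0196), and it passed in all 21 alternative settings. The sevd2 mean was -0.06 (limma, adjusted p = 0.935), and the difference of -0.80 ± 0.15 (-1.18 to -0.43) did not pass (limma, adjusted p = 0.148). That difference passed at -0.935 without sevS11 replicate 3 and at -0.639 without sevS11 extraction 1 (limma, adjusted p = 0.0028 and 0.0197).

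The kekkon family gene kek5 was the only paralog of kek1 with a value, of 5 on the list. It had ratios of -0.84, -0.90 and -1.85 on the sevS11 arrays and of -0.04, 0.18, -0.17 and 0.19 on the sevd2 arrays. The single array of sevS11 extraction 2 was the lowest. The sevS11 mean of -1.32 ± 0.21 passed (limma, adjusted p = 0.0324), and it was -0.87 without that array. The sevd2 mean was 0.04 (limma, adjusted p = 0.975), and the difference of -1.36 ± 0.29 (-2.08 to -0.63) did not pass (limma, adjusted p = 0.182). It passed at -0.909 without sevS11 replicate 3, at -1.749 without sevS11 extraction 1 and at -1.413 without sevd2 extraction 2 (limma, adjusted p = 0.00308, 0.00127 and 0.00559).

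The other sublists held no call in the fit of the 4 extractions. With each array fitted as a sample, where 30.2% of all genes passed in sevS11 and 7.66% in sevd2, dos, Mkp3 and gro passed in sevS11 and S and Nf1 in sevd2 (limma, adjusted p = 0.0142, 0.0117, 0.0324, 0.0354 and 0.0498). With the genotype's own extractions S, Nf1 and gro passed in sevd2 (limma, adjusted p = 0.00676, 0.0206 and 0.0248), beside 13.8% of all genes. Of 2 tested genes for further ligands and their processing, Star (S), whose product moves Spitz out of the endoplasmic reticulum, was at 0.47 ± 0.16 in sevS11 (limma, adjusted p = 0.147) and at 0.46 ± 0.16 in sevd2 (limma, adjusted p = 0.412). Krn, a further Spitz-like ligand, was at 0.06 ± 0.11 in sevS11 and 0.02 in sevd2. The 8 tested signal transducers had medians of 0.05 in sevS11 and 0.03 in sevd2. Among them the adaptor gene dos was at -0.34 ± 0.11 in sevS11 (limma, adjusted p = 0.125), the scaffold gene cnk at 0.30 ± 0.16 in sevS11, and the adaptor gene drk at -0.16 ± 0.10 in sevd2. Calls appeared without sevS11 replicate 3 for dos in sevS11 at -0.463 and for S in sevd2 at 0.463 (limma, adjusted p = 0.00561 and 0.00513). Without sevS11 extraction 1 they appeared for S at 0.80 and cnk at 0.597 in sevS11 (limma, adjusted p = 0.00302 and 0.0116), and for S in sevd2 (limma, adjusted p = 0.00927). The sevS11 values rested on 1 extraction: without sevS11 replicate 3 S was at 0.157 and cnk at 0.010, and without sevS11 extraction 1 dos was at -0.162, none of which passed (limma).

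The 4 tested negative regulators, Cbl included, had a median of -0.24 in sevS11 and of 0.07 in sevd2, and all 4 fitted differences, sevS11 minus sevd2, were below 0, beside 47.8% of all genes above 0. None of the 4 differences passed (limma, adjusted p = 0.148 to 0.589), beside 0.0558% of all genes. Mkp3, a MAP kinase phosphatase, was at -0.32 ± 0.10 in sevS11 (limma, adjusted p = 0.124), and Nf1, a Ras GTPase-activating protein, was at 0.33 ± 0.13 in sevd2 (limma, adjusted p = 0.505). Of the 4 tested nuclear partners and targets, the corepressor gene gro was at 0.27 ± 0.13 in sevS11 and 0.33 ± 0.13 in sevd2. The gene sina, whose product Phyllopod recruits, was at 0.14 ± 0.11 in sevS11 (limma, adjusted p = 0.438) and 0.16 ± 0.11 in sevd2 (limma, adjusted p = 0.724), so the phyl rise in sevS11 stood beside no passing change of sina. Without sevS11 replicate 3, Mkp3 at -0.391 and gro at 0.472 passed in sevS11 (limma, adjusted p = 0.0112 and 0.00678), and Nf1 and gro passed in sevd2 with values as above (limma, adjusted p = 0.0175 and 0.0212). Without sevS11 extraction 1 Nf1 and gro passed in sevd2 as well (limma, adjusted p = 0.0255 and 0.0303), and gro in sevS11 was at 0.035 (limma, adjusted p = 0.797). Of the 6 further Ets genes on the list 2 had a value and 0 could be tested.

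**Figure D4:**
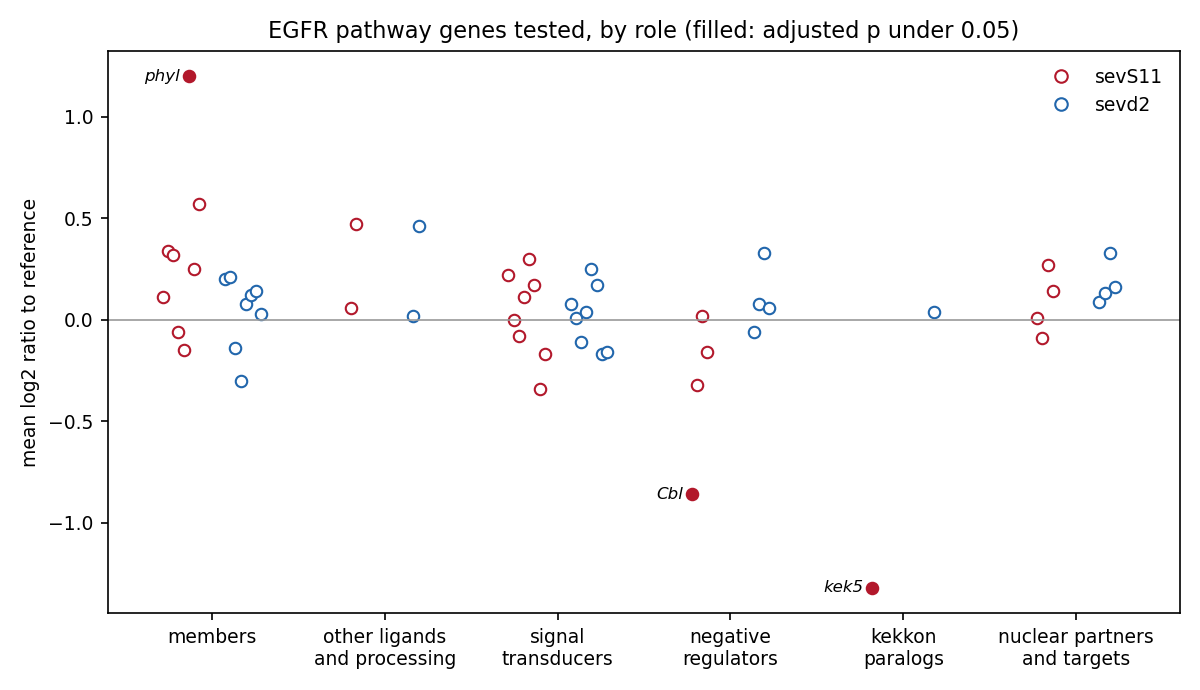
Mean log2 ratio to the reference pool (vertical axis) of each tested gene of the EGFR pathway lists. Genes are grouped by role or family, with sevS11 in red and sevd2 in blue. Filled points have an adjusted p under 0.05 by limma. The filled points are phyl at 1.20, Cbl at -0.86 and kek5, listed as a paralog of kek1, at -1.32, all in sevS11.

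The genes most like phyl across the 7 arrays, by the smallest root mean square difference of log2 ratio among 2260 genes, were Fhos at 0.153, twit at 0.163 and Dhpr at 0.261. Fhos, a formin gene, had ratios of 1.18, 1.23 and 1.07 on the sevS11 arrays, against 0.06, 0.19, -0.26 and 0.00 on the sevd2 arrays. The ratios of twit were 1.07, 0.86 and 1.27 in sevS11 and 0.22, 0.02, 0.00 and -0.06 in sevd2. Dhpr, which encodes dihydropteridine reductase, was at 0.74, 0.75 and 0.92 in sevS11 and between 0.03 and 0.11 in sevd2. These 3 genes were chosen for their likeness in these values, which is a description over 7 arrays that share the pool.

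The sev transcript and markers of the tissue gave the setting of these ratios. The sev ratio was 3.14 ± 0.54 in sevS11 (limma, adjusted p = 0.0367) and -0.36 ± 0.54 in sevd2 (limma, adjusted p = 0.904), and the likely direction of all ratios was taken from it. The sevS11 extractions were far apart for sev, at 1.85 and 4.43: the value was 1.85 without replicate 3, 4.48 without extraction 1, and 3.19 without replicate 1, where the call was lost (limma, adjusted p = 0.0612). Means of the 7 eye disc marker genes ran from -0.25 for so to 0.40 for dac in sevS11 and from 0.01 for gl to 0.32 for dac in sevd2. Means of the wing disc markers, 5 of 7 with a value, ran from -0.10 for bs to 0.02 for caup in sevS11 and from -0.11 for tup to 0.23 for bs in sevd2. None of the 6 tested eye disc markers or the 4 tested wing disc markers passed (limma). The gene gl was not tested: its sevd2 value came from 1 extraction, and its sevS11 extractions were at -0.74 and 0.63. Ratios to the pool do not show which tissue the pool held.

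Of 7 photoreceptor markers 6 had a value and 5 were tested. In sevS11 2 of the 5 passed, both higher, beside 2.18% of all genes. They were ro, a homeobox gene of developing photoreceptors, at 0.51 ± 0.10 (limma, adjusted p = 0.0484) and the neuronal gene Appl at 0.72 ± 0.14 (limma, adjusted p = 0.0419). The lowest photoreceptor marker in sevS11 was chp at -0.46. None of the 5 passed in sevd2, beside 0.0837% of all genes. Averaged over the 4 photoreceptor markers on all arrays, the ratios were 0.25, 0.01 and 0.35 on the sevS11 arrays and -0.18, -0.06, -0.25 and -0.16 on the sevd2 arrays. Over the 7 EGFR pathway genes on all arrays they were 0.23, 0.35 and 0.38 in sevS11 and 0.14, 0.13, -0.17 and -0.03 in sevd2. All 11 hemocyte markers had a value; the 4 on all arrays averaged 0.77, 0.85 and 0.30 in sevS11 and -1.15, -0.68, -0.87 and -0.51 in sevd2, and 3 of 7 tested were higher in sevS11, beside 2.18% of all genes, from NimC1 as the lowest at -0.25 to PPO2 at 1.75. In sevd2 they ran from -1.01 for He to 0.43 for lz. The gene lz was also on the list of nuclear partners and targets, had a value on 1 sevd2 array and was not tested. The 7 tested hemocyte markers had a median of -0.79 in sevd2. Among them 1 was above 0, at 0.05. The only 2 genes of 3586 that passed in sevS11 minus sevd2 were the hemocyte markers PPO2 at 2.72 and PPO1 at 2.10 (limma, adjusted p = 0.018 and 0.0429). The 3 glial markers on all arrays averaged -0.25, -0.43 and 0.12 in sevS11 and between -0.07 and 0.02 in sevd2. The part of these cell types in the ratios of phyl, sty, aos and spi was not tested. A tested antennal marker, Dll, was at 0.38 in sevS11 and 0.24 in sevd2, the epithelial gene grh at 0.47 and 0.59 likewise, the fat body gene Lsp2 at 0.03 and -0.17, and the neuronal gene para at 0.47 and 0.08, none of which passed (limma).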

How the data were processed

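Per the labels' protocols, total RNA was amplified, coupled to Cy3 or Cy5 and hybridised against the wild-type pool. The authors deposited 1 normalised value per probe and array, taken here as a log2 ratio: the submitters' processing notes name limma, whose convention is base 2. How background was corrected and arrays normalised or filtered is not given in the sources used here. All 7 arrays held values for 4701 to 7009 probes each, and their small number limits precision. Gene names came from the platform's annotation, some of it old, and a RefSeq gene table; gene identifiers matched 12533 of 16416 probes and accessions 120, while 511 carry an old symbol, 101 several genes and 3151 none. Probes of a gene were averaged.

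Dye-swapped arrays were averaged per extraction. The unswapped sevS11 array was corrected by each gene's dye effect in the 3 swapped pairs, of which 2 were sevd2 pairs; 147 tested genes had no complete pair. Over genes, dye effect and mean sevd2 ratio had a correlation of 0.326. The 3586 genes with a value from every extraction were fitted with lmFit and eBayes (limma 3.58.1 in R 4.3.3), with 1 spread for both genotypes. The pool is 1 control sample, so tests against it omit the spread among controls. The labels do not tie extractions to separate animals: p-values reflect the spread between extractions, possibly a technical one. The steps were tested on simulated data that had the same spread in both genotypes. In the real data the sevS11 extractions differed more than those of sevd2, so the simulation could not check the shared spread. The genes and lists were chosen with earlier results of these data known, so no count here is independent support for a pattern. Genes outside the 8 were named if they passed or had one of the 2 lowest p-values of their sublist in a genotype against the pool, if most like phyl, or as the lowest and highest marker of a list. Alternatives covered the dye correction, scaling, an array-level fit, filters, single probes, a robust fit, the genotype's own extractions, the threshold, a block on extraction number and leaving out each array and extraction.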

Additional observations from a re-analysis of the deposited data

How the results depend on the processing

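The count of the 8 genes that passed in sevS11 was 1 (5.77% of all genes), and 3 (30.2%) with each array fitted as a sample with a dye term, which counts technical dye swaps as replicates; 2 passed at an adjusted p under 0.1, and 1 to 4 when an array or extraction was left out, with 4 without sevS11 replicate 3 (46.9%) or without sevS11 extraction 1 (24.7%). For sevS11 minus sevd2 the count was 0, but 2 by array (12.2%), 1 with the extraction number as a block (phyl, adjusted p = 0.00272, limma; 2.37%) and 0 to 5 when leaving out an array or extraction. The extraction numbers share only a number: their deviations correlated at -0.065. In sevd2 it was 0 in every setting run. Of the other pathway genes 2 passed in sevS11, 5 by array, 3 of 25 without the filter on missing extractions (mirr higher) and 2 to 7 when leaving out an array or extraction; in sevd2 0, 2 by array, 3 with the genotype's own extractions and 0 to 3 when leaving out; in the difference 0, 3 by array, 2 with the block and 0 to 5 when leaving out. In sevd2 7.66% of all genes passed by array and 13.8% with the genotype's own extractions, so the counts of 2 and 3 do not set the list apart. When an array or extraction was left out, the median of the other pathway genes ran from -0.131 to 0.091 in sevS11. It ran from 0.036 to 0.119 in sevd2 and from -0.233 to 0.053 in the difference. Over all genes the sevS11 count of 207 of 3586 was 58 of 3319 without sevS11 replicate 1, 1745 of 3724 without sevS11 replicate 3 and 922 of 3739 without sevS11 extraction 1; the sevd2 count of 3 was 540 and 449 without that replicate and that extraction, and the difference's count of 2 was 1516 and 346. Some values near 0 changed sign. By array, Egfr in sevS11 was -0.004, edl 0.034 and Krn -0.008. In sevd2 sty was -0.013 after scaling and -0.010 after quantile normalisation. Leaving out an array or extraction gave sevS11 ratios from -0.153 to 0.330 for Egfr, -0.252 to 0.172 for edl, -0.349 to 0.048 for kek1 and -0.103 to 0.242 for Krn. It gave sevd2 ratios from -0.024 to 0.435 for aop, -0.284 to 0.004 for aos, -0.153 to 0.205 for sty, -0.020 to 0.268 for phyl, -0.050 to 0.129 for kek5 and -0.042 to 0.091 for Krn. Differences ran from -0.356 to 0.127 for Egfr and from -0.108 to 0.389 for aop. No cause of these changes was tested, and fits with 1 extraction left assume that it varies like the other genotype.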

Other observations

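Among the pathway genes without a value from every extraction, mirr had the highest ratio, and it was named after its values were seen. It read 1.33 and 1.46 on replicates 1 and 2 of sevS11 and 1.70 on replicate 1 of sevd2, and had no value on the other arrays.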
